A study of Mus musculus with 148 samples.

Results

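DNA modification was compared between proximal and distal small intestine of infant mice at postnatal day 6 (P6). All 10 samples labelled P6 were taken, of 148 samples in the study. They are villus enterocytes, the absorptive cells of the intestinal lining, from C57BL/6NCrl mice (the strain field spells it C57BL/6MCrl). The small intestine had been cut into 9 equal segments counted from the stomach. The P6 samples come from segment 1 (n = 3, the most proximal), segment 3 (n = 3) and segment 7 (n = 4, in the ileum). By the dissection described in the labels segment 3 is the last piece of the duodenum and segment 7 the first of the ileum, whereas the study counts segment 3 with the jejunum and starts the ileum before segment 7. No treatment was given to these mice, and no allele was altered. The adult samples used beside them are from untreated mice of the same strain at postnatal day 60 (P60). There are 8 samples in each of segments 1, 3 and 7 and 71 over all segments. All 10 P6 libraries were on lane 8 and no P60 library was, so that age and lane cannot be told apart. The labels give the P6 samples numbers 1 to 3 (segment 7 also 4) without saying that equal numbers mark 1 mouse. They do not say either that the samples come from separate mice, so p-values measure the spread between these samples. The replicate numbers of the P60 samples do not mark separate mice either. For adults the study reports fewer mice per segment than there are samples here. P60 p-values, SDs, dispersions and the clusters chosen from them thus rest on the spread between samples, which need not be that between mice. No RNA was measured in these libraries and the labelled cell type could not be checked against markers. A different mix of cells in a segment and a change within enterocytes cannot be told apart in such data.

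In mammals, DNA modification is mostly methylation of cytosines that precede a guanine (CpG). Bisulfite turns unmodified cytosines into uracil and leaves methylated and hydroxymethylated ones, so a read tells modified from unmodified but not one mark from the other. Lct encodes lactase, the brush border enzyme that splits milk sugar, which is high in suckling mammals. Mcm6, its upstream neighbour, encodes a subunit of the replicative helicase, and an intron of human MCM6 holds the enhancer in which the lactase persistence variants lie. Imprinted genes are expressed from the maternal or the paternal copy alone, and carry control regions methylated on a single parental copy, which gives levels near the middle of the scale in a mixed read pool.

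Padlock probes, which copy chosen stretches of bisulfite-treated DNA, covered 1102 CpGs between chr1:128275665 and chr1:128364310 (GRCm38, each strand counted by itself), where Lct and Mcm6 lie, and 22 other autosomal targets, most of them at imprinted genes. A level is the percentage of modified reads at a CpG with more than 30 reads, and a difference between levels is given in percentage points. In all 10 samples 638 CpGs of the locus and 839 of the other targets had that cover. The P6 libraries held 33271573 to 43201916 reads summed over the cytosines of the locus, with a median of 1627.5 to 2730.5 reads per CpG. At such depth the counting error of reads taken as separate molecules is small beside the spread between samples. PCR copies cannot be seen in these counts, so the number of molecules behind them is unknown. The median CpG had an SD between samples of 1.94 to 2.04 points in the locus and of 3.36 to 4.08 points in the other targets at P6, against 1.21 to 1.50 and 2.10 to 2.72 points at P60. Cytosines not followed by guanine were modified at 0.450% to 0.493%, an upper limit on unconverted cytosine that was alike in the 3 segments. The libraries numbered 1, and segment 3 replicate 1 most of all, stood apart from the others of their segment at several sites of the locus, so that results touched by them are given with and without them.

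The following stretches are shown because the results turn on their CpGs, from imprinted targets first and then from the locus. They are from the forward strand of the GRCm38 reference, with each CG in capitals. The first lies in an intron of Plagl1, the second upstream of Zdbf2, the third in an intron of Peg3 and the fourth in an intron of Trappc9. The others lie in intron 6 and exon 13 of Mcm6 and in intron 2 of Lct, both genes being on the reverse strand.
Plagl1, chr10:13089915-13089973: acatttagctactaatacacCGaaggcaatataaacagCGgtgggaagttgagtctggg
Zdbf2, chr1:63255133-63255184: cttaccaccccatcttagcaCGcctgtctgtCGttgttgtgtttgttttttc
Peg3, chr7:6728298-6728338: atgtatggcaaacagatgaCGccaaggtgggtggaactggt
Trappc9, chr15:72801552-72801603: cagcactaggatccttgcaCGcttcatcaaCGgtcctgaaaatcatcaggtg
Mcm6 intron 6, chr1:128348601-128348642: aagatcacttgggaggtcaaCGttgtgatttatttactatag
Mcm6 exon 13, chr1:128338098-128338215: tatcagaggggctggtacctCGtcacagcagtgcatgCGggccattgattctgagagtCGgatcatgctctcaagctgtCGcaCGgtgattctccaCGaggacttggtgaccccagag
Lct intron 2, chr1:128313224-128313298: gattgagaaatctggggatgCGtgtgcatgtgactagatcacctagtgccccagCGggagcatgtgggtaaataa

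Few single CpGs passed a Bonferroni threshold between infant segments. Segment 7 was more modified than segment 1 at 3 CpGs, a pair upstream of Zdbf2 and 1 in Plagl1, and none of the 3 lay in the Lct and Mcm6 locus. Each CpG was tested with a quasi-binomial model of its modified and unmodified reads over the 10 samples, the dispersion moderated with limma, at a Bonferroni-adjusted threshold of 0.01 over all CpGs tested. These 3 are 0.202% of 1484 CpGs, of which 308 (20.8%) had an unadjusted p under 0.05 in this model. The call at the first Zdbf2 CpG was lost without segment 1 replicate 1 (adjusted p = 0.0110) and kept with any other sample left out, whereas the calls at Plagl1 and at the second Zdbf2 CpG were lost when most samples were left out singly, with an adjusted p of up to 0.0525 and 0.0416. Segment 7 against segments 1 and 3 together gave 2 CpGs (0.135%), both among these 3. Segment 7 against segment 3 gave 0 (0.0%), with 125 CpGs at an unadjusted p under 0.05, and segment 3 against segment 1 gave 0 (0.0%), with 139. The same model in P60 samples called 147 of 1538 CpGs for segment 7 against 1 (9.56%), 101 for 7 against 3 (6.57%) and 133 for 7 against both (8.65%). The P60 comparison rests on more samples and on a median dispersion of 3.51, against 13.9 at P6, so the counts of the ages are not differences of effect. A limma fit on log2 odds called 0 CpGs in each of the 4 P6 comparisons, with 18.9%, 6.54%, 8.22% and 14.6% of CpGs at an unadjusted p under 0.05 for segments 7 against 1, 7 against 3, 3 against 1 and 7 against both.

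With the less strict Benjamini-Hochberg adjustment at 0.05, 9 CpGs passed between segments 7 and 1 (0.606%; 7 higher and 2 lower in segment 7) and 8 between segments 7 and 3 (0.539%; 7 higher and 1 lower). For segment 3 against 1 it was 1 CpG (0.0674%), and for segment 7 against both 20 CpGs (1.35%), of which 17 were higher and 3 lower in segment 7. Of those 20, 8 lay in the Lct and Mcm6 locus. CpGs of the locus thus passed at this threshold and not at the stricter one.

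Plagl1 encodes a zinc finger transcription factor and is expressed from the paternal copy. Its target covers a control region that is methylated on the maternal copy. At the CpG chr10:13089935, on the plus strand in an intron at -756 bases from the nearest annotated Plagl1 start, the 3 segment 1 samples had 35.0%, 32.1% and 33.1%. The segment 3 samples had 40.7%, 34.8% and 35.8%, and the segment 7 samples 47.8%, 50.1%, 48.7% and 52.6%, with 8056 to 10453 reads in each. Every segment 7 sample was above every sample of the other segments. The mean of segment 7 was 16.4 points above segment 1 (adjusted p = 0.00426) and 12.7 points above segment 3 (adjusted p = 0.0366, which misses the threshold). Against both segments together the adjusted p was 0.00267. These p-values and those of the other single CpGs are Bonferroni-adjusted values of the fit moderated with limma.

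The next CpG of Plagl1, 18 bases on at chr10:13089953, had 43.3%, 41.6% and 41.5% in segment 1, 50.8%, 45% and 44% in segment 3, and 57.8%, 56.9%, 53.9% and 58.5% in segment 7. It showed the same order, and its adjusted p of 0.0118 against segment 1 lay just outside the threshold. Over the 13 CpGs of the Plagl1 target the mean level was 34.8%, 35.4% and 33.2% in segment 1, 40.3%, 35.8% and 34.4% in segment 3, and 42%, 43.5%, 43% and 45.5% in segment 7. The groups did not overlap. The mean of segment 7 was 7.84 points higher than that of both others (exact permutation test over 6 and 4 samples, two-sided, p = 0.0048, the smallest these samples can give; 0.0917 after Benjamini-Hochberg adjustment over 77 regions). At P60 the same 13 CpGs averaged 43.3% ± 2.06, 43.6% ± 1.67 and 52.3% ± 1.05 (segments 1, 3 and 7, SD over 8 samples). In adults too segment 7 was the highest.

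Zdbf2 is a paternally expressed gene whose product promotes postnatal growth. A pair of its CpGs, 18.1 kb before its annotated start, had the lowest p-values of the comparison of segments 7 and 1. The pair lies in no annotated gene, when genes named only by Gm and a number are left aside. At chr1:63255153 segment 1 had 18.1%, 19.3% and 14.6%, segment 3 had 33.1%, 31.3% and 29.4%, and segment 7 had 33.6%, 36.8%, 35.6% and 32.5%, with 5625 to 8306 reads. Segment 1 was the one that stood apart here. Segment 7 was 17.3 points above it (adjusted p = 0.00145) and segment 3 was 13.9 points above it (adjusted p = 0.0106, just outside the threshold), whereas segments 7 and 3 overlapped.

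At the neighbouring CpG chr1:63255164 the 3 segments lay in steps. Segment 1 had 10.8%, 8.3% and 7.0%, segment 3 had 14.2%, 13.7% and 13.1%, and segment 7 had 17.8%, 20.01%, 20.8% and 19.2%. No sample of one segment overlapped another segment. The adjusted p was 0.00317 for segment 7 against 1, 0.00600 against both, 0.698 against segment 3 and 0.876 for segment 3 against 1, so that neither single step passed the threshold. At P60 this CpG stood at 12.2%, 20.2% and 25.3% in segments 1, 3 and 7, and the CpG 11 bases before it at 21.6%, 33.4% and 38.03%. The means stood in the same order at both ages. Averaged over the 195 covered CpGs of the target, the difference between segments 7 and 1 was 3.64 points, so these CpGs were not typical of the target.

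**Figure D1:**
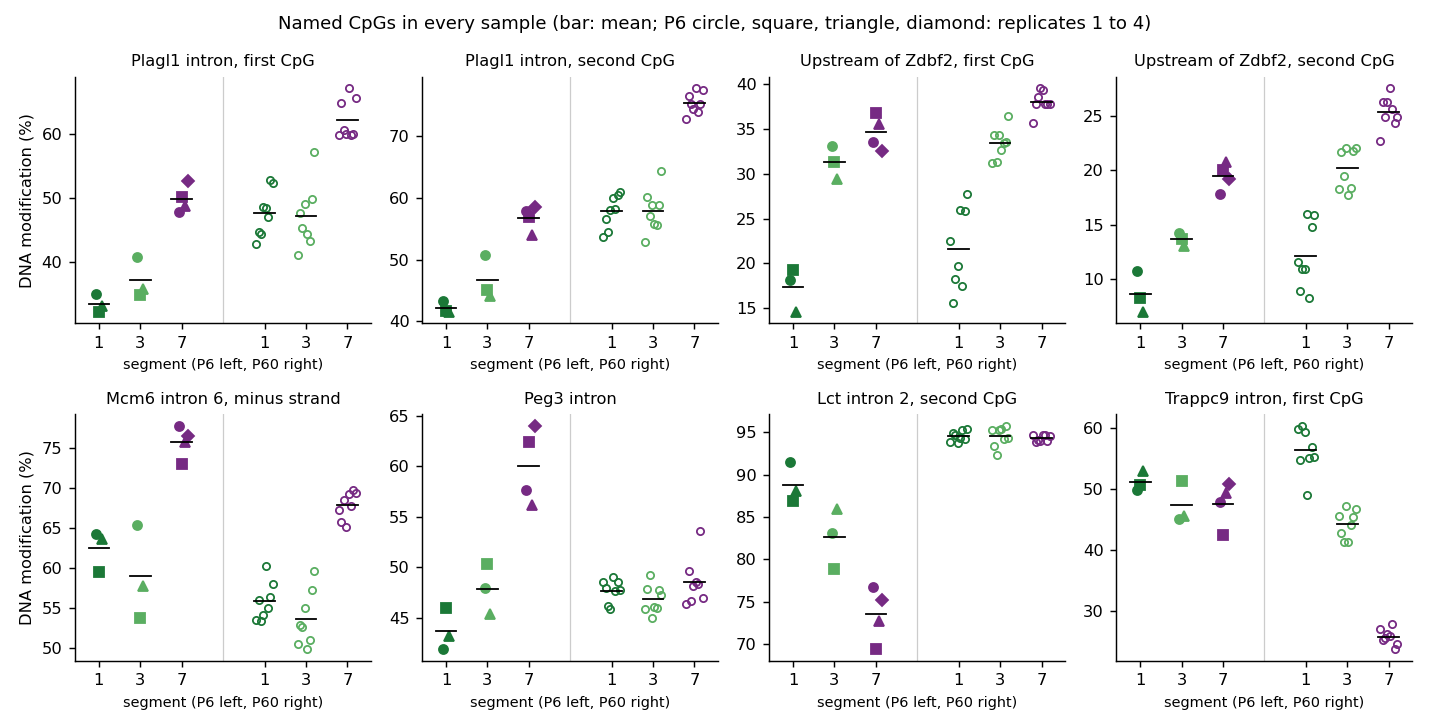
Level of 8 CpGs (y, percent of modified reads, axes not starting at 0) in segments 1, 3 and 7 at P6 (filled, left; the symbols mark replicates 1 to 4) and at P60 (open, right); bars are means. At the first CpG of Plagl1 the 4 P6 samples of segment 7 lie between 47.8% and 52.6%, above all others of that age, at Lct intron 2 they lie lowest, and at Trappc9 the ages differ.

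Peg3 is another paternally expressed zinc finger gene. At chr7:6728318, on the minus strand in an intron of Peg3, segment 1 had 41.9%, 45.9% and 43.2%, segment 3 had 47.9%, 50.3% and 45.3%, and segment 7 had 57.6%, 62.4%, 56.1% and 64%. All segment 7 samples lay above the others. The adjusted p was 0.0266 against segment 1 and 0.226 against segment 3, so neither passed the threshold. The P60 means were 47.7%, 46.9% and 48.6%, and the test of the age difference gave an adjusted p of 0.0204, again above 0.01. Over the 70 CpGs of the target, segment 7 was 5.02 points above both other segments (exact permutation p = 0.0143; 0.220 after adjustment over 77 regions).

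Most imprinted targets had their lowest infant level in segment 1. In 20 targets with at least 3 covered CpGs, the mean of segment 7 was above segment 1 in 17, with a median difference of 4.21 points. It was above segment 3 in 15 (median 1.62 points), and segment 3 was above segment 1 in 17 (median 2.34 points). The samples' means over all 839 imprinted-target CpGs were 45.4%, 46.6% and 47.5% in segment 1, 49.2%, 48.5% and 47.8% in segment 3, and 50.99%, 51.8%, 47.4% and 51.6% in segment 7. In segment 7, 3 of the 4 samples lay above all others, and replicate 3 lay among those of segment 1. In the 57 features of the locus the shift was smaller, with segment 7 above segment 1 in 39 (median 0.75 points), above segment 3 in 36 (median 0.56 points), and segment 3 above segment 1 in 27 (median -0.19 points). The means at P60 were 50.9%, 51.5% and 51.5% over the 802 imprinted-target CpGs covered at both ages.

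Snrpn, which encodes a spliceosome protein and has a maternally methylated control region, showed the same low level in segment 1. Its 35 CpGs averaged 37.4%, 38.4% and 42.3% in segment 1, 51.8%, 44.8% and 44.99% in segment 3, and 47.05%, 50.4%, 46.8% and 47.2% in segment 7. Segment 7 was 8.52 points above segment 1 with no overlap (exact permutation p = 0.0286, the smallest that 3 and 4 samples allow; 0.200 after adjustment). Segments 7 and 3 overlapped. Mest, a paternally expressed hydrolase gene, had 37.1%, 38.9% and 40.6% in segment 1, 46.3%, 44.4% and 41.6% in segment 3 and 46.5%, 44.6%, 41.8% and 47.4% in segment 7. Its order was like that of Snrpn, with segment 1 below all others. H19, a long noncoding RNA gene whose control region is methylated on the paternal copy, had 34.7%, 29.4% and 30.8% in segment 1, 39.9%, 35.4% and 35.3% in segment 3 and 46.01%, 40.1%, 32.9% and 40.1% in segment 7. Here segment 7 replicate 3 overlapped segment 1.

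A few targets ran the other way or were level. Blcap had the lowest difference between segments 7 and 1, -4.32 points, with 69.6%, 69.2%, 72.1% and 73.9% in segment 7 against 73.3%, 77.2% and 76.1% in segment 1. These samples overlapped. At Zrsr1-Commd1, Grb10, Igf2r-Airn and Dlk1-Meg3 segment 7 overlapped both other segments. Levels in segment 7 ran from 26.99% to 30.7% at Mcts2-H13, the lowest target in that segment, and from 70.9% to 78.5% at Dlk1-Meg3, the highest.

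**Figure D2:**
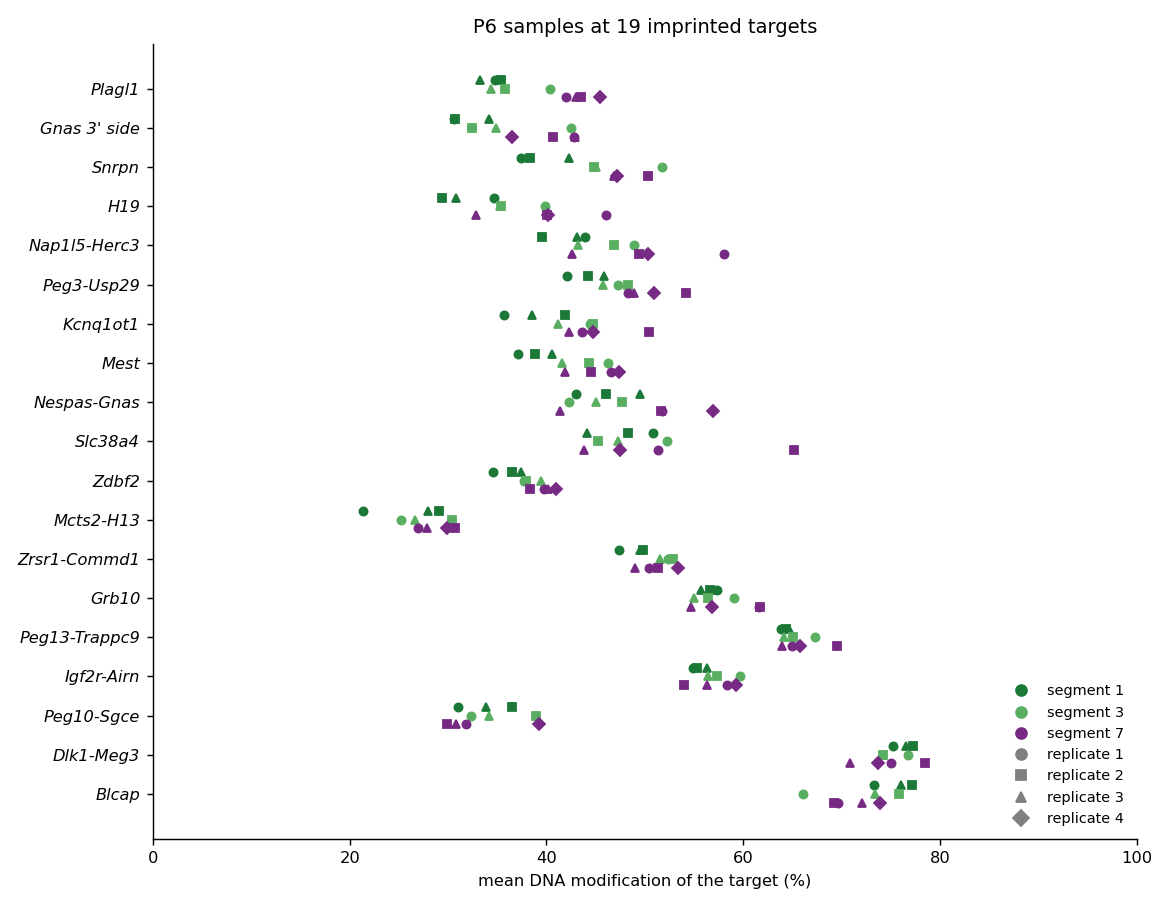
Mean level of 19 imprinted targets (rows; x, percent of modified reads) in each P6 sample, coloured by segment with the replicate as symbol, ordered by the difference between segments 7 and 1. At Plagl1 the segment 7 samples (42% to 45.5%) lie right of all others, and at most targets the segment 1 samples lie left.

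Across regions, all segment 7 samples lay above all segment 1 samples in 20 of 77 regions (26%) and below in 1 (1.3%), Lct intron 6. Against segment 3 they lay above in 5 (6.49%) and below in 1 (1.3%), Lct exon 8. Above every sample of both segments they lay in 4 regions (5.19%) and below in 0 (0.0%). The 4 were Mcm6 intron 6, Plagl1, Mcm6 exon 10 and Mcm6 exon 16. In no comparison did a region pass Benjamini-Hochberg adjustment at 0.05, and 11, 4, 0 and 12 of 77 regions had an exact permutation p under 0.05 for segments 7 against 1, 7 against 3, 3 against 1 and 7 against both. With 3 samples in each of segments 1 and 3, the smallest two-sided exact p is 0.1, so no region could pass there. The smallest p is 0.0286 for segment 7 against 1 or 3 and 0.0048 against both, at which no region could pass alone. For segment 7 against 1 or 3 many regions at that p would have been needed, so the lack of a pass decides little. Without the 3 samples numbered 1, a choice made after seeing the data, the separated regions were 14 higher (18.2%) and 1 lower (1.3%). Among single CpGs, 34 of 1477 had all segment 7 samples above those of both other segments (2.3%) and 8 had them below (0.542%). The higher ones included 6 at Zdbf2, 5 at Plagl1, 3 each at H19, Mest and Mcm6 intron 6 and 2 at Peg3, and 4 of the lower ones lay in introns 2 and 9 of Lct.

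Within the locus, Mcm6 intron 6 separated the infant segments most clearly. Its 5 CpGs averaged 71.9%, 64.3% and 69.8% in segment 1, 70.9%, 64.01% and 65.6% in segment 3, and 84.7%, 76.1%, 78.5% and 83.6% in segment 7. Every segment 7 sample was higher, by 13.01 points between the means (exact permutation p = 0.0048, and 0.0917 after adjustment over 77 regions). That test takes all samples of segments 1 and 3 as separate. With the sample number as a block, no permutation p can be below 0.037. Within equal numbers, segment 7 was above segment 1 by 12.8, 11.9 and 8.77 points and above segment 3 by 13.8, 12.1 and 12.97 points. Without the samples numbered 1 the difference was 13.5 points. At P60 the means were 73% ± 2.00, 71.8% ± 1.57 and 80.5% ± 0.982 (segments 1, 3 and 7, SD over 8 samples), where the P6 means were 68.6%, 66.8% and 80.7%.

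The CpG at chr1:128348622, minus strand, had 64.3%, 59.6% and 63.7% in segment 1, 65.4%, 53.8% and 57.8% in segment 3, and 77.8%, 73.0%, 75.8% and 76.5% in segment 7, with 4546 to 6050 reads. Its partner on the plus strand, chr1:128348621, had 66.8%, 60.3% and 59.8%, then 61.9%, 51.2% and 53.01%, then 76.7%, 72.2%, 75.9% and 76.8%. Both strands gave segment 7 as the highest and segment 3 as the lowest on average. Against segment 3 their adjusted p was 0.110 and 0.0722, and against both segments 0.0730 and 0.0895, so that neither passed 0.01. They passed the Benjamini-Hochberg adjustment against segment 3 (adjusted p = 0.0365 and 0.0361).

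Mcm6 exon 13 and the introns beside it, the largest site that varied along the adult intestine, ranged widely among infant samples of 1 segment. In P60 samples 18% of 1515 CpGs differed over the 9 segments, and 15 clusters of at least 3 such CpGs within 500 bp lay in the locus. The largest cluster holds 18 CpGs between chr1:128337771 and chr1:128338385. At P6 its mean was 27.01%, 13.7% and 10.1% in segment 1, 41.6%, 12.8% and 6.6% in segment 3, and 42.7%, 32.9%, 24.04% and 34.8% in segment 7. Segment 3 replicate 1 was far above the others of its segment, and the groups overlapped. Segment 7 was 14.98 points above both others (exact permutation p = 0.0857). The same-numbered differences between segments 7 and 1 were 15.7, 19.3 and 13.9 points, and those between segments 7 and 3 were 1.14, 20.1 and 17.4 points. Leaving out segment 3 replicate 1 gave 19.6 points (exact permutation p = 0.0238), and leaving out the 3 samples numbered 1 gave 19.8 points (exact permutation p = 0.0286).

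At P60 this cluster averaged 36.3% ± 5.64, 33.9% ± 3.89 and 63.3% ± 7.41 (segments 1, 3 and 7, SD over 8 samples), a segment difference of 28.2 points. The difference between the ages was 13.2 points (permutation test shuffling age within segments, p = 0.251). The levels were shuffled without removing the shift with age that the segments share. Such a shift widens the spread of the permutations, so this p cannot decide whether the segment effect differed between the ages. Within the cluster only 2 CpGs kept all segment 7 samples above the rest at P6. One was chr1:128338385, minus strand in intron 12, with 33.1%, 25.8% and 27.6%, then 36.6%, 22.1% and 18.6%, then 57.6%, 44.6%, 44.9% and 59.3%. The other, chr1:128338195 on the minus strand, was near the floor, with means of 1.35%, 1.67% and 3.57% in segments 1, 3 and 7. Segment 7 differed from segment 1 by 2.2 points only. Its partner on the plus strand, chr1:128338194, had means of 19.2%, 23.7% and 41.3%, so the strands disagreed on the level. The cause was not tested. This partner was among the 3 CpGs with the lowest p for the sample number.

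Other clusters of the adult gradient were each followed in the P6 samples, which had no part in choosing them. In the comparison of segment 7 with both others, 5 of the 15 clusters had an exact permutation p under 0.05, and no adjustment was made over the clusters. Among all regions 12 of 77 had such a p. The test takes all samples of segments 1 and 3 as separate, and with the sample number as a block no permutation p can be below 0.037. Segment 7 was higher in 4 of the 5 clusters and lower in 1. The cluster at Mcm6 exon 5 and intron 6 had 79.4%, 75.2% and 78.7%, then 78.4%, 75.2% and 76.5%, then 87.2%, 82.4%, 83.9% and 86.9% in segments 1, 3 and 7. It was the clearest, with no overlap and a difference of 7.88 points (exact permutation p = 0.0048). The cluster at Mcm6 exon 10 had 82.2%, 84.5% and 83.3%, then 85.4%, 83.2% and 84.8%, then 86.7%, 85.7%, 87.9% and 87.3%. It also did not overlap, by a small margin, and differed by 3.01 points (exact permutation p = 0.0048). With the sample number as a block, the permutation p of this cluster rose above 0.05. Lct exon 7 was 2.92 points higher (exact permutation p = 0.0238), Mcm6 exon 16 was 4.29 points higher (exact permutation p = 0.0286), and Lct exon 10 with intron 9 was 4.45 points lower, at a difference of -4.45 (exact permutation p = 0.0381).

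The cluster in Lct intron 2 did not separate the infant segments. It had 37.9%, 21.2% and 21.0% in segment 1, 41.3%, 19.1% and 14.1% in segment 3, and 35.9%, 29.2%, 24.4% and 29.9% in segment 7. The samples numbered 1 were the highest in each segment. The difference was 4.08 points with them (exact permutation p = 0.495) and 8.99 points without them (exact permutation p = 0.0286). Mcm6 intron 3 had 52.8%, 45.4% and 43.99%, then 59.5%, 42.7% and 37.7%, then 61.6%, 62.2%, 47.4% and 49.5%, a difference of 8.16 points (exact permutation p = 0.143) and of 10.6 points without the samples numbered 1. Lct exon 1, at the start of the gene, had 80.5%, 75.5% and 75.4%, then 75.3%, 67.9% and 71.0%, then 81.5%, 69.95%, 70.6% and 80.3%, with segment 7 overlapping both others. Every segment 3 sample there was below every segment 1 sample, at -7.61 to -4.40 points within equal numbers, a difference whose two-sided exact p cannot go below 0.1. Without the samples numbered 1 segment 7 did not overlap the rest in 9 of the 15 clusters, of which 7 were higher and 2 lower. Of the 15, 8 had an exact permutation p under 0.05. Leaving these samples out was a choice made after seeing the data. Among all 77 regions 14 were then higher and 1 lower without overlap. With all 10 samples 2 clusters were higher and 0 lower.

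**Figure D3:**
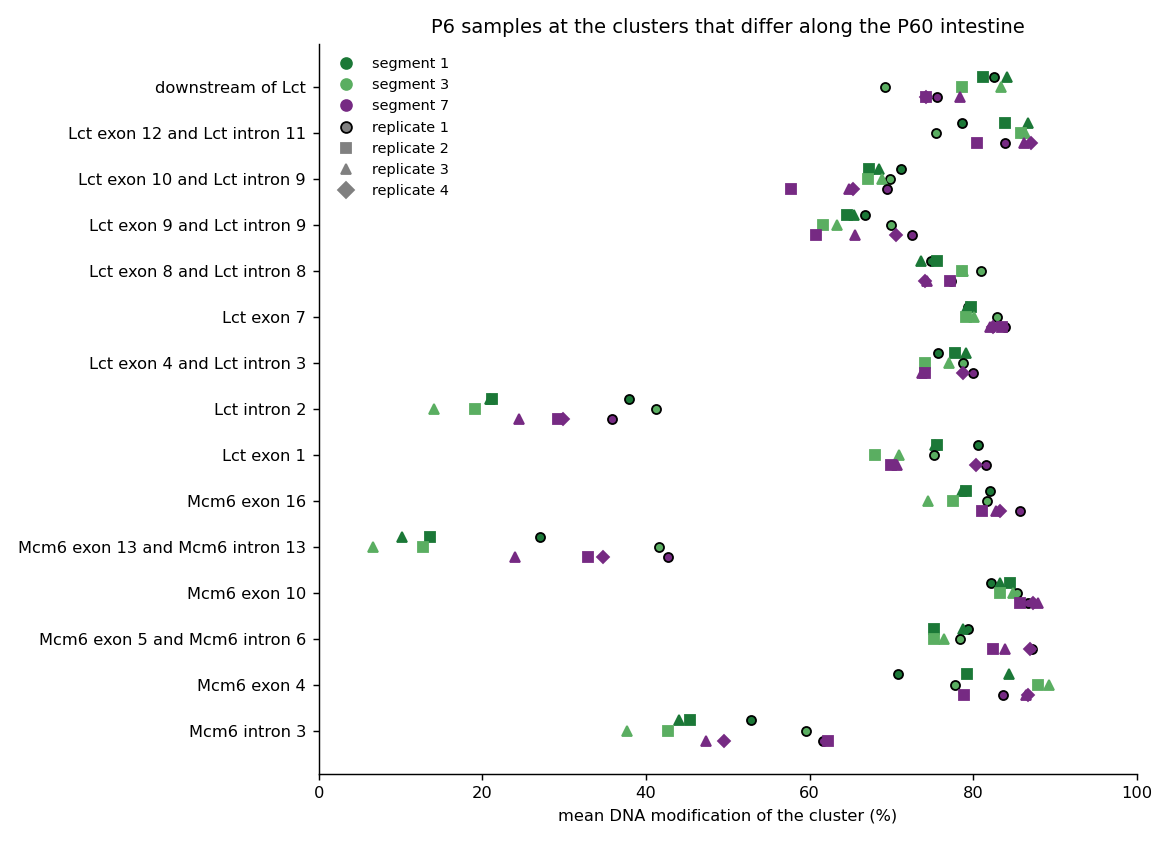
Mean level of the 15 clusters that differed along the P60 intestine (rows; x, percent of modified reads) in each P6 sample, coloured by segment, with the replicate as symbol and replicate 1 outlined. At Mcm6 exon 13 the 10 samples run from 6.6% to 42.7% and the outlined sample is the highest within each segment, while at Mcm6 exon 5 and intron 6 all segment 7 samples lie right of the others.

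Samples also leaned apart by their number, though no single CpG passed the threshold. An F test of the number over the 9 samples numbered 1 to 3, with segment in the fit moderated with limma, called 0 of 1478 CpGs (0.0%), but 16.6% had an unadjusted p under 0.05 (11.8% by limma on log2 odds, which also called 0). The F test of the segment in the same 9 samples, with the number in the fit, also called 0 of 1478, with 17.1% under 0.05. At chr1:128314519 in Lct intron 2 the samples numbered 1 had 47.5%, 49.2% and 49.7% in segments 1, 3 and 7, those numbered 2 had 28.03%, 25.9% and 37.7%, and those numbered 3 had 28.8%, 21.7% and 32.2%. Segment 7 replicate 4 had 46.5%. The samples numbered 1 were the highest in each segment, with segment 7 replicate 4 close to them. At chr11:12023322 in an intron of Grb10, which encodes a growth-inhibiting adaptor protein, segment 1 had 22.4%, 16.1% and 8.9%, segment 3 had 19.4%, 11.5% and 9.4%, and segment 7 had 26.8%, 21.2%, 15.3% and 11.1%. Number 1 was the highest in each segment and number 3 the lowest of the first 3. This CpG lies outside the locus. Both CpGs were named for their low p in the test of the number, so their order by number follows from that choice. Whether the number stands for a mouse, a litter or a preparation was not tested.

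A pair of CpGs in Lct intron 2 had lower levels distally. At chr1:128313278 segment 1 had 91.4%, 86.9% and 88.0%, segment 3 had 83.1%, 78.9% and 85.9%, and segment 7 had 76.7%, 69.3%, 72.7% and 75.2%, with 1718 to 6121 reads. The 4 segment 7 samples were the lowest, at a mean difference from segment 1 of -15.3 points (Bonferroni-adjusted p of the limma-moderated fit 0.215; 0.0269 with Benjamini-Hochberg adjustment). The CpG at chr1:128313244, 34 bases away, differed by -9.3 points in the same order. At P60 the 3 segments stood at 94.5%, 94.5% and 94.3% at the first of these, and the age difference had an adjusted p of 0.0998, above the threshold. In Lct exon 1 the CpG chr1:128328160, 158 bases from the start, was lowest in segment 3. It had 84.3%, 83.1% and 83.9% in segment 1, 76.99%, 77.3% and 73.6% in segment 3, and 87.2%, 82.4%, 87.6% and 88.0% in segment 7 (adjusted p = 0.159 for segment 7 against 3).

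The CpGs that differed between adult segments mostly leaned the same way in infants. Of 63 locus CpGs that passed the threshold as higher in P60 segment 7 than in segments 1 and 3, 52 (82.5%) were higher in segment 7 at P6, where the share over all locus CpGs was 60.7%. Their median difference was 3.84 points at P6 and 10.5 points at P60. Such CpGs were chosen by their P60 difference, here and in the imprinted targets, so a larger P60 median is not independent of the choice. All those in Mcm6 were higher at P6, against 60.7% of all locus CpGs. Among them were 12 in exon 13 and 5 in intron 13, and neighbouring CpGs are not independent points. The exceptions all lay in Lct, where 2 of 4 agreed in exon 9, 2 of 4 in intron 2 and 0 of 2 in exon 10. In Lct exon 7 4 of 4 agreed, and in exon 12 3 of 3, so the lean was less even in Lct than in Mcm6. All 5 locus CpGs called lower at P60 were lower at P6, whereas 60.7% of all locus CpGs were higher. In the imprinted targets all 38 CpGs called higher at P60 were higher at P6 (75.9% over all), by a median of 8.56 points against 10.6 points at P60. They lay at Zdbf2 (15), Snrpn (9), Plagl1 (7), Mest (3), Peg3-Usp29 (3) and Peg13-Trappc9 (1). Of 27 called lower, 23 were lower at P6, whereas 75.9% of all CpGs of these targets were higher. The 27 had a median of -2.91 points at P6 and of -9.38 points at P60, and 14 of them lay at Peg13-Trappc9 and 11 at Dlk1-Meg3. Across CpGs the differences at the 2 ages had a Pearson r of 0.668 and a Spearman rho of 0.369 in the locus (639 CpGs) and of 0.424 and 0.284 in the imprinted targets (843 CpGs). These describe CpGs of the same libraries, with neighbours on the same reads, and are not over independent points.

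**Figure D4:**
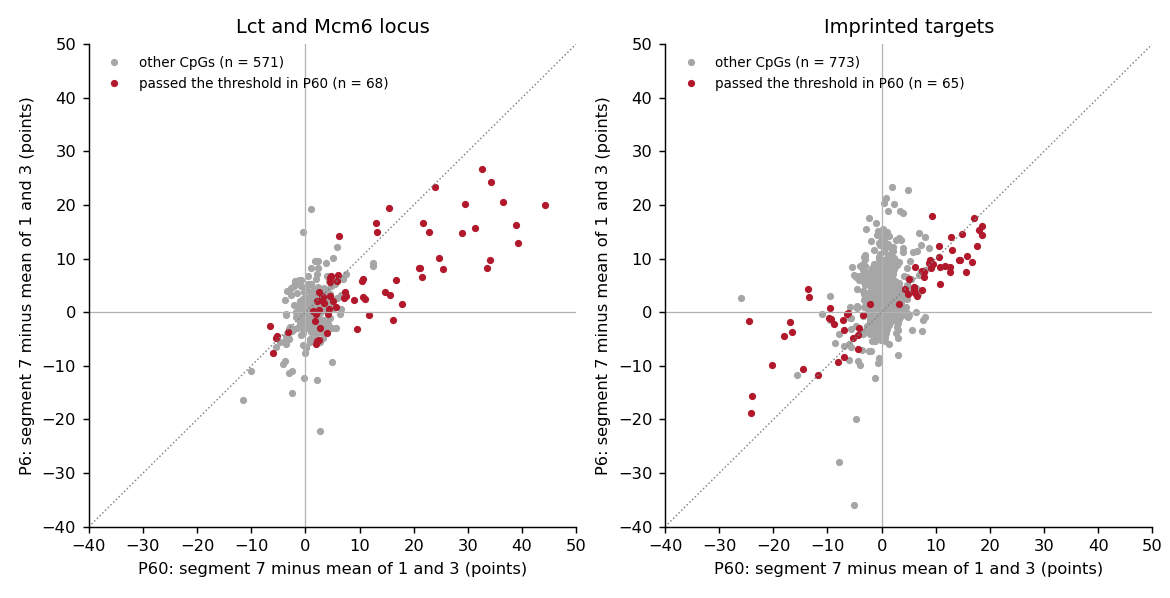
Difference of segment 7 from the mean of segments 1 and 3 (percentage points) for each CpG tested at both ages, P60 on x and P6 on y, in the locus (left) and the imprinted targets (right); red CpGs passed the threshold at P60 and the dotted line marks equal differences. Most red CpGs of the locus lie under the line on the right, with a median of 10.5 points at P60 and 3.84 at P6. They were chosen at P60, so the larger P60 difference is not independent of the choice.

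A pair of CpGs had a segment effect that differed between the ages past the Bonferroni threshold, out of 1482 tested (0.135%), and both lie in an intron of Trappc9 next to Peg13, a noncoding RNA gene expressed from the paternal copy. At chr15:72801572, minus strand, the P6 samples had 49.7%, 50.5% and 52.9% in segment 1, 45.1%, 51.3% and 45.6% in segment 3 and 47.8%, 42.4%, 49.4% and 50.8% in segment 7. The segments overlapped. At P60 the means were 56.3%, 44.3% and 25.8% in segments 1, 3 and 7 (adjusted p of the age difference 9.96e-07). At chr15:72801583 the P6 samples had 28.3%, 23.6% and 29.7%, then 20.5%, 18.8% and 14.9%, then 18.9%, 15.9%, 20.5% and 17.4%, while the P60 means were 35.2%, 25.6% and 12.3% (adjusted p = 0.00129). In infants segment 1 was the highest and segments 3 and 7 were alike.

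The age difference of the segment effect was also tested over each cluster of the locus, by 100000 permutations of age within segments, and 3 of 15 had a p under 0.05. The shift with age that the segments share was not removed before shuffling. The null of this test is thus no change with age in any segment, and not equal segment effects. These clusters were chosen for their adult differences, so that a larger adult effect is not independent of the choice. The effect was 9.75 points larger at P60 at Lct intron 2 (permutation p = 0.0427) and 3.27 points larger at Lct exon 4 and intron 3 (permutation p = 0.0369). At Mcm6 exon 5 and intron 6 it was smaller at P60, at -2.52 points (permutation p = 0.0195), the opposite direction. With the reads of each cluster pooled 0 of the 15 had a p under 0.05, and 1 did without segment 7 replicate 2, 3 or 4.

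**Figure D5:**
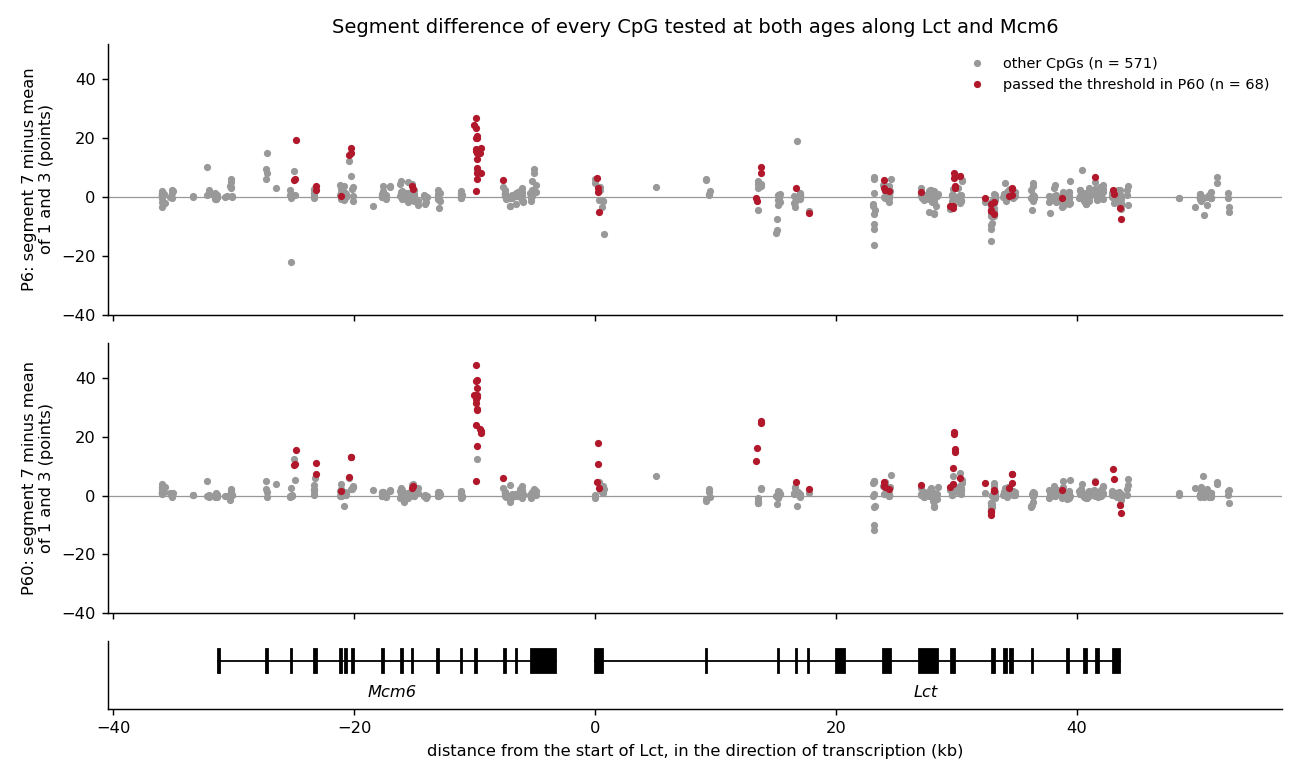
Difference of segment 7 from the mean of segments 1 and 3 (y, percentage points) at each CpG along the locus at P6 (top) and P60 (middle), with exons of Mcm6 and Lct (bottom); x is the distance from the Lct start in kb. The red CpGs, which passed the threshold at P60, form a peak at Mcm6 exon 13 at both ages, about 10 kb upstream of Lct.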

How the data were processed

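Genomic DNA of the enterocytes was bisulfite-treated, captured with padlock probes and sequenced by the authors, who trimmed reads with Trimmomatic 0.32 and aligned them with Bismark to GRCm38/mm10, per the labels. The deposited files hold counts of modified and unmodified reads per cytosine, strands apart, without molecular identifiers, so intervals and tests cannot see PCR copies. The members, regions and comparisons were chosen with earlier results of these data known. A level is modified reads over all reads, at more than 30 reads. CpGs with that cover in at least 3 samples of every segment entered a quasi-binomial fit in R 4.3.3, its dispersion moderated with limma 3.58.1, Bonferroni threshold 0.01. Region means used CpGs covered in all 10 samples, at least 3 per region (exons and introns from GENCODE M21), in two-sided exact permutation tests over samples (SciPy 1.17.1). Named CpGs are those past the threshold in a P6 comparison, the 3 with the lowest p in the locus and in the imprinted targets for segment 7 against 1 and against 3, the 3 with the lowest p for the age difference and for the sample number, and those of the largest P60 cluster. Named regions are the P60 clusters, those without overlap, those with the largest and smallest differences and every imprinted target by its level; 1 target on chromosome 18 is given in counts only. The scripts were tested on simulated data. In the locus, deviations from segment means correlated at 0.329 to 0.697 between equal numbers of segments 1 and 3 (0.0108 to 0.307 in the other targets). Unequal numbers of these segments ran from -0.640 to 0.391 in the locus, so the ranges overlapped. For segments 1 and 7 and for segments 3 and 7 the lowest pair of equal numbers was 0.0572 and -0.0729. Alternatives were the replicate block, other cover minimums, thresholds and dispersions, limma on log2 odds, strands summed, and each P6 sample left out. No pair of P6 libraries of the same segment agreed within the sampling noise of reads taken as separate molecules, and other pairs were not compared in this way.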

Additional observations from a re-analysis of the deposited data

Results flagged for a closer look

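In groups of 4 samples, the most distant value was set against Dixon's 95% critical value in 70 groups, where chance marks about 1 in 20. At Snrpn, segment 7 replicate 2 had a mean of 50.4%, above 46.8% to 47.2% in the other 3. At chr1:128328160 in Lct exon 1, segment 7 replicate 2 had 82.4%, below 87.2% to 88.0% in the other 3.

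The difference between segment 7 and the mean of segments 1 and 3 differed between P6 and P60 at the Trappc9 CpGs chr15:72801572 (adjusted p = 9.96e-07 in the fit moderated with limma) and chr15:72801583 (adjusted p = 0.00129). It differed by 9.75 points at the cluster in Lct intron 2, by 3.27 points at Lct exon 4 and intron 3, and by -2.52 points at Mcm6 exon 5 and intron 6 (P60 minus P6, each with a permutation p under 0.05, not adjusted over the 15 clusters), and 0 clusters were left under 0.05 with reads pooled over the cluster and 1 without segment 7 replicate 2, 3 or 4. The cluster permutations did not remove the shift with age that the segments share, so their p is not a test of equal segment effects. Age and lane cannot be told apart in these comparisons.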

How the results depend on the processing

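Counts of CpGs past the threshold moved with the processing. For segments 7 against 1 the count was 3, and became 9 with Benjamini-Hochberg adjustment at 0.05, 0 with Bonferroni adjustment over CpGs and other cytosines, 0 without moderation of the dispersion, 0 by limma on log2 odds, 1 to 6 with 1 sample left out and 5 without the samples numbered 1. For segments 7 against 3 it was 0, and became 8 with Benjamini-Hochberg adjustment, 0 to 5 with 1 sample left out and 2 without the samples numbered 1. For segments 3 against 1 it was 0, and became 1 with Benjamini-Hochberg adjustment, 1 with both strands summed and 0 to 1 with 1 sample left out. For segment 7 against both it was 2, and became 20, 0, 0 and 0 in the first 4 settings, 0 to 6 with 1 sample left out and 6 without the samples numbered 1. Among the settings that left out 1 sample, the most calls came without segment 3 replicate 1 (6, 5 and 6 for segments 7 against 1, 3 and both). Left out singly, each segment 1 sample and segment 7 replicates 2, 3 and 4 took the count for segments 7 against 1 to 1. At P60 that adjustment raised the share of CpGs called from 9.56% to 25.8% (segments 7 against 1) and from 6.57% to 15.3% (7 against 3). The age difference had 2 CpGs, 8 with that adjustment and 14 with 1 common dispersion. For clusters without overlap, segment 7 against 1 gave 4 (4 to 8 with 1 sample left out, the 8 without segment 1 replicate 1; 9 without the samples numbered 1), and segment 7 against 3 gave 3 (3 to 10, the 10 without segment 3 replicate 1; 11). For segment 7 against both, 5 clusters had an exact permutation p under 0.05 (3 to 6; 8 without the samples numbered 1), with 3 left without segment 1 replicate 3, segment 7 replicate 3 or segment 7 replicate 4. The age difference had 3 clusters, 0 with reads pooled over the cluster and 1 to 4 with 1 sample left out, 1 without segment 7 replicate 2, 3 or 4. Without the samples numbered 1, the cluster at Lct exon 12 and intron 11 turned to -1.11 points and Mcm6 exon 4 to -1.19. With 1 sample left out, Lct exon 4 and intron 3 ran from -1.57 to 0.51 points, with 0.36 and 0.51 without segment 7 replicates 2 and 3, and Lct exon 1 ran from -0.63 to 3.22 points, with -0.63 and -0.23 without segment 7 replicates 1 and 4. None of these 4 clusters had an exact permutation p under 0.05 for segment 7 against both. The cause of these changes was not tested.

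Using the replicate number as a block, the pairing gave 2 CpGs for segments 7 against 1, 0 against 3, 0 for 3 against 1 and 1 for 7 against both. With Benjamini-Hochberg adjustment, an alternative chosen after seeing the data as was leaving out the samples numbered 1, the block gave 50, 5, 1 and 24, and with limma on log2 odds 0 each. Segment 7 shares only numbers with the others, and not every sample correlated best with its own number. With the block 6 clusters had a permutation p under 0.05, each at 0.037, the smallest it can give. Mcm6 exon 13 (14.6 points) and Mcm6 intron 3 (10.1 points) came under 0.05, Mcm6 exon 10 rose to 0.0741, and Lct exon 1 turned to -0.23 points. The adjusted p of the age difference at chr15:72801583 became 0.0197 in the blocked fit moderated with limma. For segment 7 against 1 or 3, 3 pairs cannot go below 0.25.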
